A study of Mus musculus with 5 samples.

Results

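The genes described here are 28 genes of the lysosome, chosen by symbol for what their products do: 5 membrane proteins, 9 proteases, 5 glycosidases, 4 proteins that handle lipids or belong to the granulins, 4 parts of the proton pump and the transcription factor TFEB. All 28 were found among the 46983 genes of each library. The libraries were made from RNA of cells sorted as tumour-associated macrophages (CD45+ CD11b+ Ly6G- F4/80+) from EO771 tumours, a mouse mammary carcinoma grown in the mammary gland of C57/BL6 mice. In 2 libraries the mice had received 2 doses of diphtheria toxin (50 µg per kg) to deplete regulatory T (Treg) cells, and the cells were taken 4 days after ablation. The 3 control libraries came from tumours left untreated, so an effect of the toxin and one of Treg loss cannot be told apart. The sources used here do not give the allele that makes Treg cells sensitive to the toxin, the age of the mice or how many animals a library holds. Since no source states that each library is its own animal, the p-values reflect library-to-library spread, and this spread may be purely technical. The study asked how myeloid cells change when Treg cells are lost, with IFN-γ from CD4+ T cells as the signal of interest.

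The lysosome is the acidic compartment in which cells break down material taken up from outside or delivered by autophagy. A proton pump in its membrane, the V-ATPase, keeps it acidic. Cathepsins and other proteases, glycosidases and lipases then degrade proteins, sugars and lipids, while membrane proteins shield the membrane and carry the products out. Many genes of these proteins carry a short promoter sequence, the CLEAR element, that is bound by TFEB and its relatives TFE3 and MITF. Macrophages are rich in lysosomes, and cathepsins in them also cut antigens for presentation, but every nucleated cell type of a tumour has lysosomes too.

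Library totals lay between 13122668 and 20156835 counts. Levels are given in CPM, counts divided by the TMM-scaled library total and multiplied by 1000000. TMM is a factor that corrects for differences in composition. The sort label was checked against marker genes. Adgre1, which encodes F4/80, had 5.73 to 9.87 CPM, Itgam, which encodes CD11b, 12.2 to 19.0 CPM and Ptprc, which encodes CD45, 22.1 to 32.96 CPM, whereas the collagen gene Col3a1 had 7467 to 9556 CPM. The 12 fibroblast markers summed to 11188 to 13294 CPM per library, and the 12 macrophage markers to 126 to 232 CPM. The 8 epithelial and mammary tumour markers summed to 259 to 317 CPM, above the macrophage markers in every library. The libraries thus held far more collagen RNA than RNA of macrophage markers, and no change below is assigned to a cell type. In RNA from many cells, fewer cells of a type and less RNA per cell cannot be told apart.

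Cathepsin L stood far above the other lysosomal genes in every library. Per kilobase of exon, Ctsl, a papain-family cysteine protease, had 1475 ± 80.1 CPM in controls (SD, n = 3), followed by Psap, the precursor of the saposins that help to degrade sphingolipids, with 415 ± 13.8. Lamp1, the most abundant membrane glycoprotein of the lysosome, had 349.7 ± 6.04 and Ctsb, another cysteine protease, 270.6 ± 12.7. The lowest was Tfeb at 1.08 ± 0.215 CPM per kilobase, so the list spanned a 1370-fold range. Between these ends, Cd63, Ctsz, Ctsd, Grn and Npc2 lay between 143.0 and 206 CPM per kilobase in controls, and Ctsh, Neu1, Atp6v1h, Gla, Atp6v0c and Ctsc between 4.02 and 8.77. Controls agreed closely for most genes: the coefficient of variation between the 3 control libraries ran from 1.03% for Mcoln1 to 19.9% for Tfeb, which had the fewest counts (483 over the 5 libraries).

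**Figure D1:**
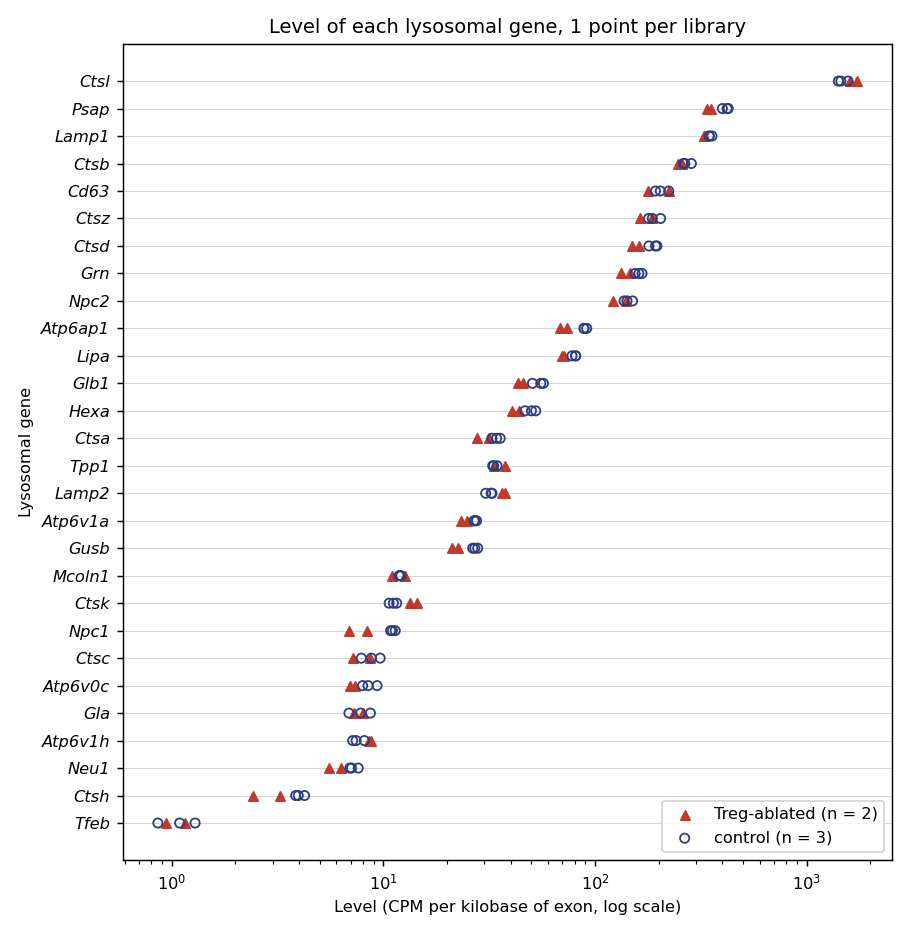
Level of each of the 28 lysosomal genes in CPM per kilobase of exon on a log axis, with 1 point per library (triangles, Treg-ablated, n = 2; circles, control, n = 3). Ctsl is highest in all libraries and Tfeb lowest, and the distance between genes far exceeds that between groups.

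Summed over the list, the lysosomal genes made up nearly the same share of the libraries in both groups. In sum the 2 Treg-ablated libraries had 10036 and 9461 CPM and the 3 controls 9777, 10048 and 10511 CPM, and the groups overlapped. The make-up of this total differed between the groups, although Ctsl itself did not pass an adjusted p of 0.05 (edgeR adjusted p = 0.1292). Ctsl took 34.1% and 33.3% of the sum in the Treg-ablated libraries and 28.4%, 28.4% and 29.3% in the controls. Without Ctsl, a subset chosen after the values were seen, the remaining 27 genes summed to 6613 and 6311 CPM after ablation against 6996, 7191 and 7427 CPM in controls, with both Treg-ablated libraries below all controls.

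**Figure D2:**
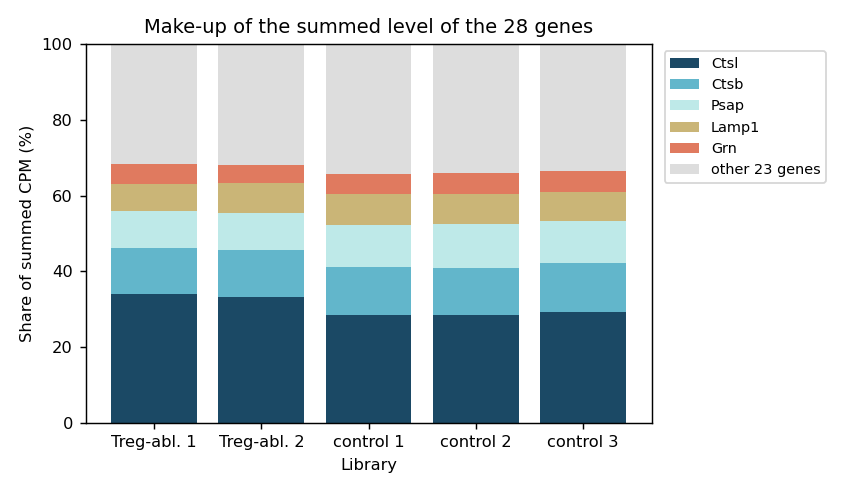
Share of the summed CPM of the 28 lysosomal genes taken by the 5 genes with the highest control CPM and by the other 23, 1 bar per library. The Ctsl segment reaches 34.1% and 33.3% in the Treg-ablated libraries and 28.4% to 29.3% in the controls.

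More of the lysosomal genes fell than rose after Treg ablation, all by small amounts. Of the 28 genes, 8 fell (Npc1, Ctsh, Atp6ap1, Gusb, Glb1, Ctsd, Psap and Hexa), 2 rose (Ctsk and Lamp2) and 18 did not pass an adjusted p of 0.05 (edgeR's quasi-likelihood test, adjusted over 14580 genes). Among all genes tested 12.3% passed as lower and 13.5% as higher. Of the genes with a mean of at least 10 CPM, which 27 of the 28 reach in controls, 15.9% were lower and 15.2% higher. The median log2 fold change of the list was −0.16, against −0.01 for all genes tested, and 23 of the 28 values were below 0. The largest falls were 1.45-fold for Npc1 and 1.41-fold for Ctsh, and no gene changed by 1.5-fold.

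The direction was the same in both Treg-ablated libraries for most of these genes. In 16 of the 28 both Treg-ablated libraries lay below all 3 controls, and in 4 both lay above, against 25.6% and 26.9% of all genes tested. Relative to the control mean of each gene, the median log2 level over the list was −0.121 for Treg-ablated replicate 1 and −0.22 for replicate 2, and −0.051, 0.004 and 0.039 for the controls. Replicate 2 of the Treg-ablated group was thus farther below the controls than replicate 1, which was the higher of the pair for 20 of the 28 genes.

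**Figure D3:**
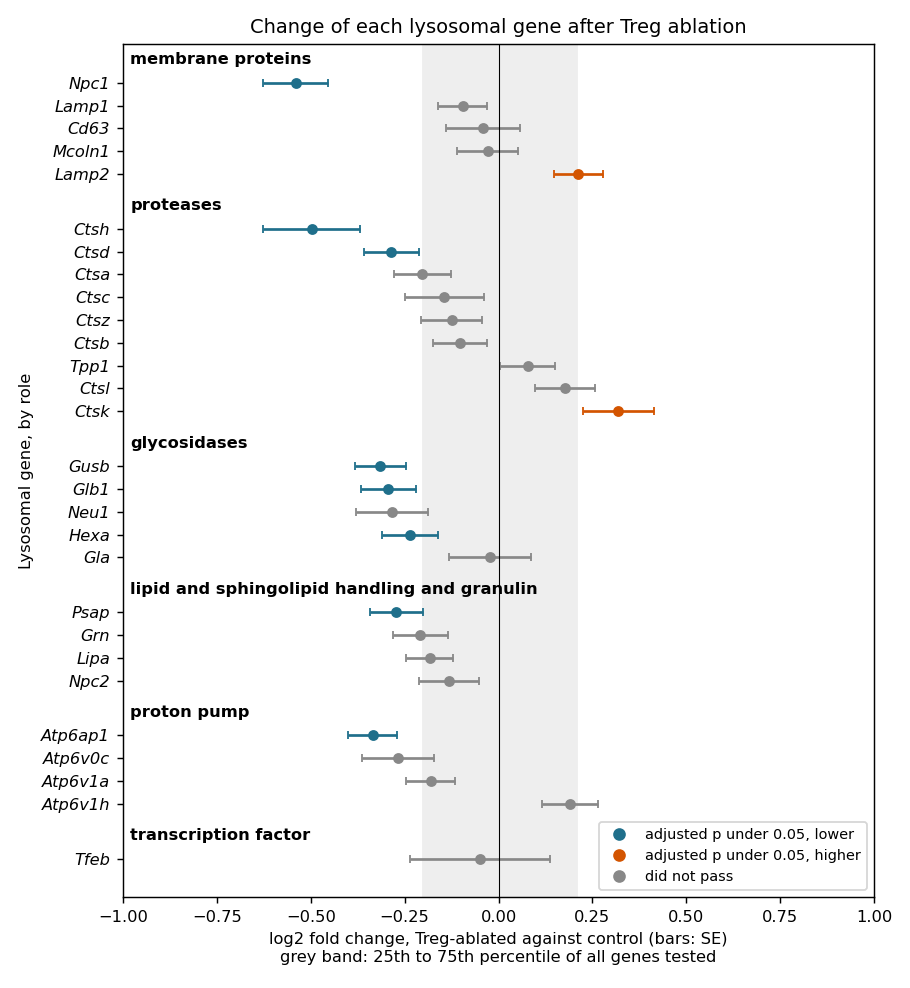
Log2 fold change of each lysosomal gene, Treg-ablated (n = 2) against control (n = 3), grouped by role, with bars for the SE. Blue and orange points passed an adjusted p of 0.05, the grey band holds the middle of all genes tested (−0.2 to 0.21), and every glycosidase and lipid-handling gene lies left of 0.

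Among the membrane proteins Npc1 fell and Lamp2 rose, while Lamp1, Cd63 and Mcoln1 did not pass. Npc1 (ENSMUSG00000024413, chromosome 18, 12189693 to 12236400, minus strand, GRCm38) encodes the transporter that moves cholesterol out of the lysosome. It had 73.8 and 89.9 CPM in the Treg-ablated libraries and 122, 118 and 116 CPM in the controls. Both Treg-ablated values lay well below the controls, although they differed from each other more than the controls did. The log2 fold change was −0.54 (SE 0.0865, adjusted p = 0.002235 with edgeR), the largest fall of the list. Its partner Npc2, which hands cholesterol to Npc1 in the lumen, had 456 and 395 CPM against 447, 461 and 490.3 CPM, with overlapping groups (log2 fold change −0.13, SE 0.0796, adjusted p = 0.2459).

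Lamp2 (ENSMUSG00000016534, chromosome X, 38401357 to 38456454, minus strand), a membrane glycoprotein needed for autophagy, had 345 and 358 CPM after ablation and 309, 291 and 311 CPM in controls. Both Treg-ablated libraries lay above all controls (log2 fold change 0.21, SE 0.0657, edgeR adjusted p = 0.03727). The call did not hold with an offset for GC content, which left a log2 fold change of 0.057 (adjusted p = 0.5464), and it ended without any of 4 libraries (adjusted p = 0.06958 and 0.1388 without Treg-ablated replicate 1 or 2, and 0.05995 and 0.1665 without control replicate 1 or 2). Lamp2 had the lowest GC content of the 10 genes called, 38.7% in its longest transcript. Its relative Lamp1 had 738 and 737 CPM against 780.4, 781 and 804 CPM, lower in both Treg-ablated libraries without passing (log2 fold change −0.10, SE 0.0656, adjusted p = 0.309). Mcoln1, a calcium channel of the lysosome, had 35.8 and 41.0 CPM against 38.7 to 39.4 CPM and did not pass (log2 fold change −0.03).

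Cd63, a tetraspanin of late endosomes and lysosomes, had 230.3 and 183 CPM against 199, 209.7 and 229.7 CPM (log2 fold change −0.04, adjusted p = 0.7918). Its reads may be divided, since 387 of the 3991 words of 50 bases in its transcripts also occur in the pseudogene Cd63-ps, and that pseudogene had more counts than Cd63 itself, at 319 to 379.6 CPM. Summed with Cd63-ps, an alternative chosen after seeing the data, the log2 fold change was −0.059 and did not pass either (adjusted p = 0.6628).

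The proteases went both ways, and their most abundant members did not pass. Ctsd and Ctsh fell, Ctsk rose and the other 6 did not pass. Ctsd (ENSMUSG00000007891, chromosome 7, 142371148 to 142388038, minus strand), the main aspartic protease of the lysosome, had 408 and 375 CPM after ablation and 452, 486 and 494 CPM in controls, with no overlap. The log2 fold change was −0.29 (SE 0.0729, edgeR adjusted p = 0.01729). It no longer passed with the GC offset, where it shrank to −0.153 (adjusted p = 0.09859), or without Treg-ablated replicate 2 or control replicate 2 (adjusted p = 0.1047 and 0.09001).

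Ctsh (ENSMUSG00000032359, chromosome 9, 90054152 to 90076089, plus strand), a cysteine protease that trims peptides from their amino end, was among the lowest genes of the list. It had 14.6 and 10.9 CPM in the Treg-ablated libraries against 17.3, 17.8 and 19.1 CPM. The groups did not overlap, and Treg-ablated replicate 2 was the lowest library (log2 fold change −0.50, SE 0.129, edgeR adjusted p = 0.01836). Without Treg-ablated replicate 2 the log2 fold change was −0.307 and did not pass (adjusted p = 0.1121), and without control replicate 2 the adjusted p was 0.07497.

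Ctsk (ENSMUSG00000028111, chromosome 3, 95499256 to 95509362, plus strand), a collagen-degrading cathepsin known from osteoclasts and also made by fibroblasts, rose from 16.9, 17.5 and 16.1 CPM in controls to 21.7 and 20.3 CPM. It was the largest rise of the list (log2 fold change 0.32, SE 0.0948, edgeR adjusted p = 0.03187). DESeq2 did not call it (adjusted p = 0.1098), and leaving out Treg-ablated replicate 1 (adjusted p = 0.1554) or any 1 control ended the call (adjusted p = 0.06318, 0.08529 and 0.07553 without replicates 1, 2 and 3). The 6 osteoclast markers summed to 38.3 and 34.9 CPM against 25.1 to 31.7 CPM. Of the 4 tested 1, Mmp9, passed as higher and 0 as lower, with a median log2 fold change of 0.34. Oscar and Calcr, also on this list, reached at most 0.418 and 0.0754 CPM. Of the 12 fibroblast markers 4 fell and 1 rose, where 12.3% of all genes tested passed as lower and 13.5% as higher. The part of either cell type in the Ctsk change was not tested.

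Ctsl had 3423 and 3150 CPM after ablation and 2781, 2856 and 3084 CPM in controls. Both Treg-ablated libraries lay above all controls, by little for replicate 2, and the gene did not pass (log2 fold change 0.18, SE 0.0801, edgeR adjusted p = 0.1292). The GC offset took the log2 fold change of Ctsl to 0.069 (edgeR adjusted p = 0.5803). Ctsb had 1215.5 and 1173 CPM against 1238, 1259 and 1351 CPM, lower in both without passing (log2 fold change −0.10, adjusted p = 0.3232). It shares 767 of its 4739 exon bases with Fdft1 on the opposite strand, and Ctsa shares 819 of 4715 with Pltp and Neurl2. Counting set no strand, so reads there cannot be told apart. Ctsa, a carboxypeptidase that also stabilises galactosidase and neuraminidase, had 149 and 131 CPM against 154 to 168 CPM (log2 fold change −0.20, adjusted p = 0.07222). Ctsc, which activates granule serine proteases, Ctsz, a carboxypeptidase, and Tpp1, a tripeptidyl peptidase, had overlapping groups and log2 fold changes of −0.14, −0.13 and 0.08.

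The glycosidases were all below 0, and 3 of the 5 fell. Over all genes tested 7391 of 14580 were below 0 and 12.3% passed as lower, and 5 genes are too few to compare with these. Gusb (ENSMUSG00000025534, chromosome 5, 129989011 to 130003049, minus strand), the beta-glucuronidase, had 103 and 95.7 CPM after ablation against 120.2, 123 and 127 CPM (log2 fold change −0.31, SE 0.0677, edgeR adjusted p = 0.008382). Glb1 (ENSMUSG00000045594, chromosome 9, 114401076 to 114474376, plus strand), the beta-galactosidase, had 104 and 109 CPM against 121, 133 and 137 CPM (log2 fold change −0.29, SE 0.0734, adjusted p = 0.01599). In both genes the Treg-ablated libraries lay below every control. Neither passed without control replicate 2 (adjusted p = 0.05272 for Gusb and 0.08346 for Glb1), and Glb1 did not pass without Treg-ablated replicate 1 (0.06806). Of the 2395 exon bases of Glb1, 175 also lie in Tmppe on the same strand.

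Hexa (ENSMUSG00000025232, chromosome 9, 59539667 to 59565105, plus strand), the alpha subunit of beta-hexosaminidase, had 81.6 and 75.8 CPM against 87.0, 93.3 and 97.7 CPM (log2 fold change −0.24, SE 0.0755, edgeR adjusted p = 0.04258). This was the call nearest the threshold. DESeq2 did not make it (adjusted p = 0.06944), nor did the fit scaled by library size alone (0.05644), and it ended with the GC offset (0.2442) and when Treg-ablated replicate 2 (0.1958) or either of control replicates 2 and 3 (0.1448 and 0.1108) was left out. Neu1, the sialidase, lay just outside it at 23.6 and 20.6 CPM against 25.9, 28.4 and 26.4 CPM (log2 fold change −0.28, SE 0.0959, adjusted p = 0.05121), without overlap. Gla, the alpha-galactosidase, had 26.2 and 23.8 CPM within the control range of 22.4 to 28.4 CPM (log2 fold change −0.02).

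Of the genes for lipid breakdown and granulin, Psap fell and Lipa, Npc2 and Grn did not pass. Psap (ENSMUSG00000004207, chromosome 10, 60277627 to 60302597, plus strand) had 964 and 923 CPM after ablation against 1096, 1168 and 1153 CPM, a clear gap between the groups (log2 fold change −0.27, SE 0.0702, edgeR adjusted p = 0.01811). With the GC offset it was −0.152 (adjusted p = 0.1002), and it did not pass without Treg-ablated replicate 2 or control replicate 2 (adjusted p = 0.09147 and 0.09791). Grn, whose product progranulin is cut into granulins in the lysosome, had 506 and 461 CPM against 537, 559.8 and 579 CPM (log2 fold change −0.21, SE 0.0724, adjusted p = 0.05685). Lipa, the acid lipase that frees cholesterol from its esters, had 207 and 211 CPM against 240.2, 231 and 240.4 CPM (log2 fold change −0.18, SE 0.0629, adjusted p = 0.05399). Both lay below all controls. Lipa, with a GC content of 42.2%, passed as lower with the GC offset (log2 fold change −0.314, adjusted p = 0.006471).

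Of the 4 parts of the proton pump Atp6ap1 fell and 3 did not pass. Atp6ap1 (ENSMUSG00000019087, chromosome X, 74297097 to 74304721, plus strand), an accessory subunit that helps to assemble the pump, had 223 and 207 CPM after ablation against 268, 276 and 269 CPM. The 3 controls lay close together and both Treg-ablated libraries were far below them (log2 fold change −0.33, SE 0.0657, edgeR adjusted p = 0.005391). Atp6v1a, the catalytic subunit, had 140.0 and 149.7 CPM against 162, 167 and 164 CPM and did not pass (log2 fold change −0.18, adjusted p = 0.06468), whereas it passed as lower with the GC offset (−0.285, adjusted p = 0.01114). Atp6v1h, a regulatory subunit, had 85.3 and 83.05 CPM against 72.4, 69.8 and 79.2 CPM (log2 fold change 0.19, adjusted p = 0.08274), and the GC offset took it to 0.03 (adjusted p = 0.8331).

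Atp6v0c, the proteolipid of the membrane ring, had 23.6 and 24.9 CPM against 27.01, 31.6 and 28.6 CPM and did not pass (log2 fold change −0.27, SE 0.0952, edgeR adjusted p = 0.06127). Its pseudogene Atp6v0c-ps2 shares 366 of 3419 words of 50 bases with it and had more counts, 53.3 and 48.9 CPM after ablation against 61.1, 63.9 and 63.8 CPM. Summed with this copy, a choice made after seeing the data, the gene passed as lower (log2 fold change −0.289, adjusted p = 0.01376). Which of these reads came from the gene itself was not tested. Of the 3384 exon bases of Atp6v0c, 927 also lie in another annotated gene on the same strand, which had 0 counts. How reads in these bases were assigned was not tested, and Atp6v0c may have lost reads there. Tfeb, the transcription factor, had 6.56 and 5.36 CPM against 6.18, 7.31 and 4.88 CPM. Its groups overlapped, with no call made (log2 fold change −0.05, SE 0.187, adjusted p = 0.8699).

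Promoters from RefSeq (GRCm38.p6), from 250 bases before to 50 after each annotated start, were found for 24 of the 28 genes (not for Ctsb, Ctsh, Npc1 and Atp6v1h). Some genes had more than 1 start. They were searched for the E-box CACGTG and for TCACGTGA, the core of the CLEAR element, which contains the E-box. Each motif reads the same on both strands. An E-box was found in 8 of the 24 genes (33.3%) against 8.09% of all 27025 genes in the table, and the CLEAR core in 5 (20.8%) against 1.12%. The genes are listed for their function, and function and this motif are known to go together, so the E-box and CLEAR shares describe the list and not the response.

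The promoter stretches that hold the CLEAR core are shown because 5 of the 24 genes share this sequence. Capitals mark TCACGTGA, or CACGTG where only the E-box is present. They lie, in GRCm38, with Ctsa at chr2:164833746-164833798 on the plus strand, Ctsd at chr7:142387905-142387940 on the minus strand, Gla at chrX:134601179-134601247 on the minus strand, Mcoln1 at chr8:3500433-3500494 on the plus strand and Atp6v1a at chr16:44139370-44139405 on the minus strand.
Ctsa: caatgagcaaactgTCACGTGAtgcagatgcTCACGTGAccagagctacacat
Ctsd: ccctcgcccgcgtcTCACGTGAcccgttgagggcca
Gla: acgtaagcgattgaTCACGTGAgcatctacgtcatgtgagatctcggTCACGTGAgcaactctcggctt
Mcoln1: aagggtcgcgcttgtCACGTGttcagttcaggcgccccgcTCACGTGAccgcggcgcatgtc
Atp6v1a: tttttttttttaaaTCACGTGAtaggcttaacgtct

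Of these 5 genes Ctsd fell, with its CLEAR core starting 99 bases before the start, and Ctsa, Gla, Mcoln1 and Atp6v1a did not pass. Ctsa and Gla each held 2 copies. Those of Ctsa lay in the promoter shown, while its promoter at chr2:164832622-164832921 held neither an E-box nor the CLEAR core. Ctsd and Mcoln1 each held a further E-box outside the core, which started 245 and 71 bases before the start. Among the genes that fell and had a promoter in the table, 2 of 6 held an E-box and 1 of 6 the CLEAR core, and among those that did not pass 6 of 16 and 4 of 16 did. The numbers are too small to compare. An E-box but no CLEAR core stood in 3 genes: Glb1, which fell, Lamp1, which did not pass and held 4 copies, and Ctsl, which did not pass and held it 236 bases before the start. They are shown for comparison, with Lamp1 at chr8:13159085-13159166 on the plus strand, Glb1 at chr9:114401015-114401050 on the plus strand and Ctsl at chr13:64370736-64370770 on the minus strand.
Lamp1: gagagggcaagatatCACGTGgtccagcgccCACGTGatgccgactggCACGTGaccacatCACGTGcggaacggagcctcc
Glb1: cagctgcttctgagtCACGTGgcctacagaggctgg
Ctsl: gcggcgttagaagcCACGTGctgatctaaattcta

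The largest fall and the largest rise among the genes in the promoter table were those of Atp6ap1 and Ctsk. Neither promoter held an E-box or a CLEAR core in this window, so both are printed whole and without capitals. They lie with Atp6ap1 at chrX:74296847-74297146 on the plus strand and Ctsk at chr3:95498960-95499259 on the plus strand. This says nothing about whether a factor binds elsewhere.
Atp6ap1: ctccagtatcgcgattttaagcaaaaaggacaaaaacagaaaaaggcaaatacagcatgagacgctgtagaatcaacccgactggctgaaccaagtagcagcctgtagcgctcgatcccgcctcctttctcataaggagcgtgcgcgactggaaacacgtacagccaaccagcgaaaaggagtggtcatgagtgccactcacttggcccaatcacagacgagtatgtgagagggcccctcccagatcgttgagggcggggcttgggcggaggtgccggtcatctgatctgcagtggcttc
Ctsk: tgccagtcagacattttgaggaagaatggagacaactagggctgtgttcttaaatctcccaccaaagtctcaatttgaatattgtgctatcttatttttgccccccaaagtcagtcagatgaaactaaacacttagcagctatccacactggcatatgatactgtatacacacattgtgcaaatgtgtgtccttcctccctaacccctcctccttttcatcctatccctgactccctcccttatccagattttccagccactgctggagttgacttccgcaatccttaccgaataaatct

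Other lysosome genes, in 6 lists chosen by function, also moved more often down than up. Of 107 genes 104 were tested, of which 37 fell, 11 rose and 56 did not pass, where 12.3% of all genes tested passed as lower and 13.5% as higher. The number that rose was not above the share over all genes. The 104 genes had a median log2 fold change of −0.13 against −0.01 for all genes. Among 35 other soluble hydrolases and their activators 16 fell and 4 rose. Sgsh, a sulfamidase that degrades heparan sulfate, had 22.1 ± 1.27 CPM in controls (SD, n = 3) and fell to 12.4 ± 0.891 CPM (SD, n = 2) (log2 fold change −0.84, SE 0.105, edgeR adjusted p = 0.0007396). Gm2a, the activator that presents ganglioside to hexosaminidase, fell 1.42-fold (adjusted p = 0.001744). The genes that rose included the cathepsin genes Ctso (log2 fold change 0.43, adjusted p = 0.002633) and Ctsw (1.03, adjusted p = 0.003599) and the acid ceramidase gene Asah1 (0.23, adjusted p = 0.02933). Ctsw is known from cytotoxic lymphocytes. The 12 T and NK cell markers summed to 84.2 and 88.3 CPM after ablation against 20.1 to 26.3 CPM, 10 of them higher, and their part in this rise was not tested.

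Among 26 other membrane proteins and transporters 10 fell and 3 rose, beside 12.3% lower and 13.5% higher over all genes. The lipid transporter gene Abca2 (log2 fold change −0.59, edgeR adjusted p = 0.0007806), the cation channel gene Tpcn1 (−0.43, adjusted p = 0.00213) and Laptm5, a leukocyte gene (−0.45, adjusted p = 0.003592), fell, and the peptide transporter gene Abcb9 (0.63, adjusted p = 0.007415), the sialomucin gene Cd164 (0.29, adjusted p = 0.01458) and the sialic acid exporter gene Slc17a5 (0.30, adjusted p = 0.03212) rose. Of the other V-ATPase subunits 15 of 16 were tested and 10 did not pass. The membrane-sector genes Atp6v0a1, Atp6v0d1 and Atp6v0a2 fell (log2 fold changes −0.40, −0.36 and −0.38), and Atp6ap2, the other accessory subunit, rose (0.33, SE 0.0777, adjusted p = 0.01202), opposite to Atp6ap1. Atp6v0d2 also rose, from 0.862 to 1.58 CPM (adjusted p = 0.04887).

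Of 10 genes that deliver enzymes to the lysosome 4 fell and 0 rose (12.3% and 13.5% over all genes). At an unadjusted p under 0.05 in edgeR 1 was higher, against 2869 of the 14580 genes tested. Igf2r, the large mannose 6-phosphate receptor, had a log2 fold change of −0.37 (SE 0.108, edgeR adjusted p = 0.03017), and the adaptor gene Gga2 and the sorting receptor gene Sort1 fell by 0.47 and 0.79 on the log2 scale (adjusted p = 0.006613 and 0.02437). In the genes that control lysosome transcription and signalling, 14 of 16 were tested. Of these 3 fell, 1 rose and 10 did not pass, beside 12.3% lower and 13.5% higher over all genes. Tfe3, the relative of TFEB, had 41.4 and 39.0 CPM against 49.0, 50.2 and 49.7 CPM and fell (log2 fold change −0.30, SE 0.0722, adjusted p = 0.0128). This call was lost without Treg-ablated replicate 2 or control replicate 2 (adjusted p = 0.06892 and 0.0745). Mitf had a log2 fold change of −0.06 and did not pass, and Tfec was below the filter on low counts with 0.226 to 1.32 CPM. Rptor and Mtor, parts of the kinase complex that holds TFEB back, fell (log2 fold changes −0.43 and −0.37), and Zkscan3, described as a repressor of lysosome genes, rose (0.32, adjusted p = 0.01092). Of the cystatins, inhibitors of papain-family cathepsins, Cst6 fell 2.22-fold and Cst7 rose 2.01-fold, from 3.48 and 1.05 CPM in controls, and the abundant Cst3 did not pass (log2 fold change −0.09).

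Calls were lost when single libraries were left out. Without control replicate 2, 15 of the genes named from the lists no longer passed (Asah1, Abcb9, Cd164, Slc17a5, Atp6v0a1, Atp6v0a2, Atp6v0d1, Atp6v0d2, Atp6ap2, Sort1, Igf2r, Mtor, Tfe3, Zkscan3 and Cst7), with adjusted p from 0.05499 to 0.14. Their log2 fold changes moved little (Tfe3 −0.296, Igf2r −0.337, Sort1 −0.684), and calls over all genes numbered 812 higher and 554 lower in that fit, so the loss was not particular to these genes. Without Treg-ablated replicate 1 the calls of Atp6v0a1, Atp6v0a2, Atp6v0d2, Atp6ap2, Sort1, Igf2r, Slc17a5 and Cst7 ended (adjusted p from 0.05059 to 0.1699), and without Treg-ablated replicate 2 those of Asah1, Cd164, Slc17a5, Atp6v0d1, Atp6v0d2 and Tfe3 (0.06271 to 0.1566). Igf2r, Slc17a5 and Atp6v0d2 also did not pass without control replicate 1 (0.0591 to 0.1034), nor Slc17a5 without control replicate 3 (0.06603). Sgsh, Gm2a, Ctso, Ctsw, Abca2, Tpcn1, Laptm5, Gga2, Rptor and Cst6 passed without any 1 library.

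**Figure D4:**
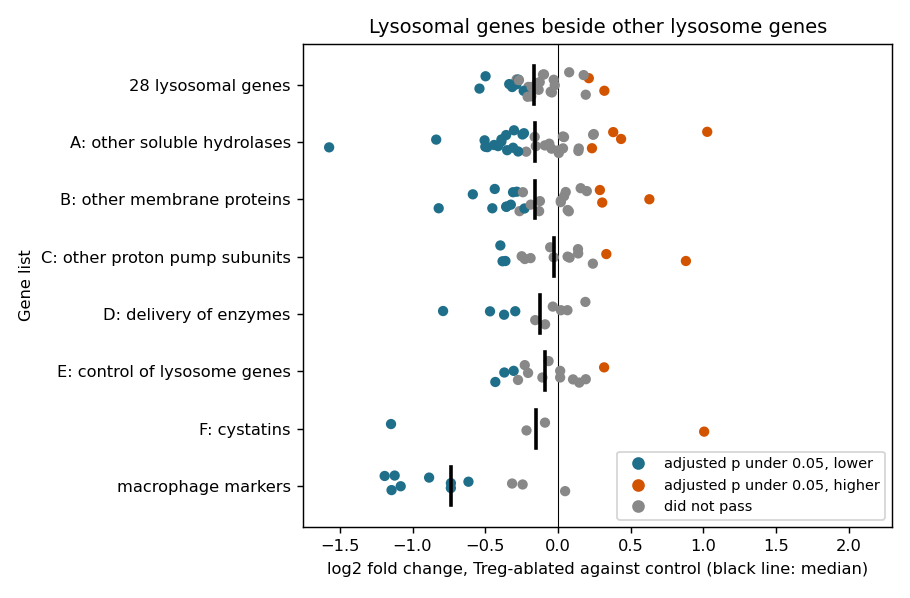
Log2 fold change (Treg-ablated against control) of the 28 lysosomal genes, of the 6 lists of other lysosome genes and of the macrophage markers, 1 point per gene tested, with a black line at the median. The lysosome lists lie close to 0, with medians from −0.16 to −0.03, while the macrophage markers have a median of −0.74.

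Markers of macrophages fell by more than the lysosomal genes. Over all genes tested 12.3% passed as lower and 13.5% as higher. Of the 12 macrophage markers 11 were tested, 8 fell and 0 rose, with a median log2 fold change of −0.74. They summed to 141 and 126 CPM in the Treg-ablated libraries against 232, 227 and 217 CPM in the controls, a difference of −40.7%, while the sum of the 28 lysosomal genes differed by −3.59%. Csf1r, the receptor for CSF-1, had 22.3 and 20.5 CPM against 52.5, 50.2 and 44.2 CPM (log2 fold change −1.19, edgeR adjusted p = 6.789e-05). It had the largest fall of these markers, and Itgam did not pass (−0.315, edgeR adjusted p = 0.09224). The fibroblast, epithelial and mammary tumour, and endothelial markers had median log2 fold changes of −0.22, −0.11 and −0.39. Lymphocyte and mast cell markers moved the other way: 10 of 12 T and NK cell, 6 of 8 B and plasma cell and 6 of 6 mast cell genes rose. The part of these changes in the values of the lysosomal genes was not tested.

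Across the other ways of processing, the direction of every gene that passed was kept, and the number of calls was not. Npc1 and Atp6ap1 passed under all alternatives other than the test against a fold of 1.5, which called 0 lysosomal genes. Without control replicate 2, the deepest library, they were the only 2 of the 28 that passed, while the log2 fold changes of the others stayed close to those reported (Gusb −0.317, Glb1 −0.278, Ctsd −0.272). Without Treg-ablated replicate 2, 4 fell and 1 rose. In that fit the genes that fell were Npc1, Gusb, Glb1 and Atp6ap1.

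**Figure D5:**
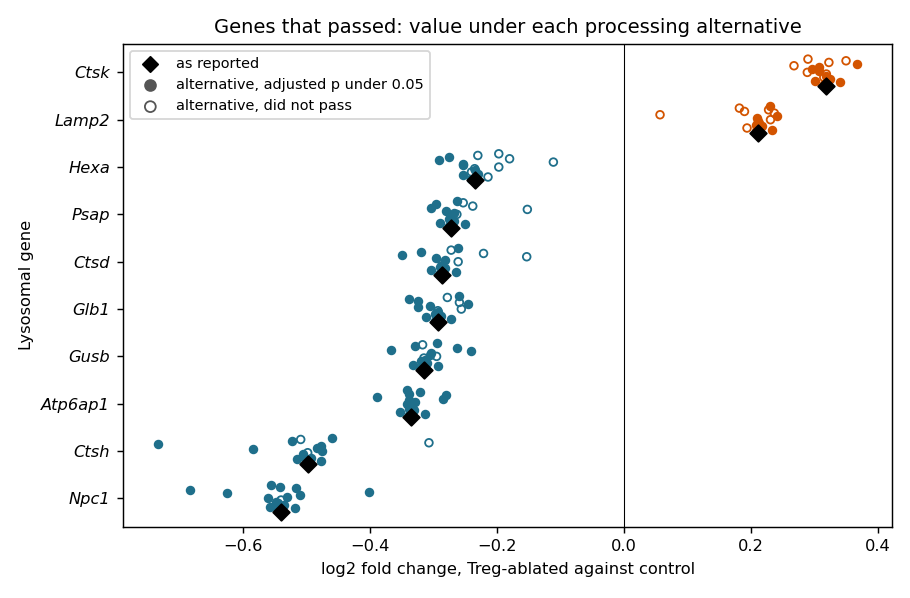
Log2 fold change of the 10 lysosomal genes that passed, as reported (black diamonds) and under each of the 16 alternatives (filled circles, adjusted p under 0.05; open circles, did not pass). No point crosses 0. Filled circles prevail for Npc1 and Atp6ap1, and open ones are frequent for Hexa, Lamp2 and Ctsk.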

How the data were processed

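Gene counts from RNA-seq of 5 libraries were used, grouped and numbered by their sample titles. The deposited counts are raw fragments per gene: per the file headers, featureCounts 1.6.2 was run by the authors over the exons of a filtered Ensembl 83 gene set (GRCm38), with no option set for strand or for reads that match several places. Tools in the submitters' processing notes are Trimmomatic 0.33, Subread 1.6.2, FastQC 0.11.5 and DESeq2 1.16.1. Symbols were joined by Ensembl identifier.

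Genes kept by filterByExpr (14580) were scaled by TMM. The groups were compared by glmQLFTest (R 4.3.3, edgeR 4.0.16), and p-values were adjusted by Benjamini-Hochberg and called under 0.05. The SE was obtained as the size of the log2 fold change over the root of the F statistic. Values are mean ± SD with n = 2 Treg-ablated and n = 3 control libraries. The 28 genes and the other lists were chosen with earlier results of these data known. Every listed lysosomal gene is named, and from each other list up to 3 higher and 3 lower genes with the smallest p, with Tfe3, Mitf, Tfec, Cst3 and a set of markers. Genes named beside these were chosen after their values were seen. A gene that this rule names and a promoter motif that was searched are not reported here.

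Libraries of 1 group differed from each other by more than counting noise (chi-square per degree of freedom 4.167 to 7.709). On simulated counts over 14350 genes the test found 71.6% of the true changes of 1.5-fold, 94% at 2-fold and 97% at 4-fold, and called 14 unchanged genes. Changes below 1.5-fold were not simulated. All 28 lysosomal genes changed by less than that, so the recovery of changes of their size was not measured. GC content is that of the longest GENCODE M21 transcript, which 99.7% of tested genes had. Alternatives used limma 3.58.1 and DESeq2 1.42.0, other scalings, filters and offsets, 1 library left out at a time, and 2 genes summed with a pseudogene copy.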

Additional observations from a re-analysis of the deposited data

How the results depend on the processing

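No gene that passed, as reported or under an alternative, changed direction. Of the lysosomal genes that did not pass, Cd63, Ctsz, Gla, Tpp1, Mcoln1 and Tfeb changed sign under at least 1 alternative (for example Cd63 to 0.103 with the GC offset and 0.118 without Treg-ablated replicate 2), and passed under none. Of 450 pairs of a lysosomal gene and an alternative 381 kept their side of the threshold, 45 lost a call and 24 gained one. As reported, 2 of the 28 lysosomal genes were higher and 8 lower, with a median log2 fold change of −0.163, 11 and 37 of the other listed lysosome genes, and 1971 and 1787 of all genes. DESeq2 called 1 lysosomal gene higher and 7 lower, 7 and 29 other lysosome genes, and 1370 and 1349 of all genes. A filter of 1 count in any library gave 1 higher and 12 lower lysosomal genes, and 2082 and 2336 of all genes. The test against a fold of 1.5 called 0 and 0 lysosomal genes and 0 and 0 other lysosome genes higher and lower, and 98 and 23 of all genes. By unadjusted p under 0.05 with edgeR, 3 lysosomal genes were higher and 14 lower, and 2869 and 2788 of the 14580 genes tested. An offset for gene length gave 4 higher and 14 lower lysosomal genes, and 2583 and 2507 of all genes. The GC offset gave 1 higher and 7 lower lysosomal genes, with a median of −0.1. It gave 7 and 25 other lysosome genes, and 1542 and 1314 of all genes. With the replicate block, 0 lysosomal genes were higher and 3 lower (Ctsh, Npc1 and Atp6ap1), 5 other lysosome genes were higher and 26 lower, and 1296 and 1116 of all genes passed. In that fit control replicate 3 had no Treg-ablated library of its number and so added nothing to the comparison. Npc1 had a log2 fold change of −0.56 with the block and −0.556 without control replicate 3. The lost calls therefore do not show that libraries were paired. The replicate numbers are shared only as numbers. In their deviations from the group mean, same-numbered libraries correlated at −0.282 for number 1 and −0.0129 for number 2. The deviations of 2 libraries from their own mean mirror each other, so these values cannot decide whether libraries were paired. Leaving out 1 library at a time gave 0 to 2 higher and 2 to 10 lower lysosomal genes, a median of −0.225 to −0.118, 2 to 12 higher and 17 to 32 lower other lysosome genes, and 812 to 1687 higher and 554 to 1538 lower of all genes. With 1 Treg-ablated library left, its spread is taken to equal that of the controls. A count of 0 allows up to 0.149 to 0.229 CPM (3 counts, counting error only).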
